A study of Homo sapiens with 12 samples.

Results

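GLI2 knockout (KO) and control (WT) breast cancer cells were compared while both were under paclitaxel. The comparison held 3 GLI2 KO libraries and 3 WT libraries, chosen by genotype and treatment in their labels, out of 12 libraries in the series, and it was read across all expressed genes. All cells were MDA-MB-231b, a bone-tropic derivative of MDA-MB-231, a long-established human line of triple-negative breast cancer, recovered from the bone marrow of athymic nude mice. Per the design text, lentivirus delivered Cas9 with either a GLI2 guide RNA or a guide without a target. The sources used here do not give whether WT cells carried the guide without a target, where the GLI2 guide cuts, or whether the KO cells were a clone or a pool. Both groups received 50 nM paclitaxel for 2 days. The other 6 libraries, 3 per genotype, came from cells kept for the same 2 days in DMSO, the drug's solvent, and served to ask whether a genotype difference was itself different under the drug.

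GLI2 is a zinc-finger transcription factor at the end of the Hedgehog pathway. A Hedgehog ligand binds the receptor PTCH1, this releases Smoothened, and GLI2 then activates target genes that include GLI1 and PTCH1 itself. In breast cancer cells that grow in bone, GLI2 is known for acting downstream of TGF-beta and for driving PTHLH, the gene of parathyroid hormone-related protein. Paclitaxel binds beta-tubulin inside microtubules, stops them from shortening, and stalls cells in mitosis.

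The 6 paclitaxel libraries held 83230948 to 103563345 counts and 24923 to 24985 genes with at least 1 count. Mitochondrially encoded genes took 4.83% to 5.33% of their counts. The leading principal component of these libraries carried 82.0% of the variance and separated the genotypes, and the next carried 5.79%. Replicates differed by more than counting noise, and GLI2 KO replicate 3 stood furthest from its group, with a chi-square per degree of freedom of 10.7 and 6.63 against the other KO libraries where these differed from each other by 3.92. In DMSO KO replicate 3 (12.4 and 16.2, against 3.47) and WT replicate 2 (10.4 and 7.70, against 3.19) stood apart in the same way. Counts of list members are given without both KO replicate 3 libraries for the stress response and replication lists and wherever a count moved by at least 1.5 times. Without WT replicate 2 in DMSO, 2470 differences between treatments were called, against 2963 with all libraries. The labels do not say whether replicates were separate cultures, and a p-value here therefore reflects only how much these libraries vary, which may be technical. Library numbers in the titles placed all WT libraries before all KO libraries, so any effect of library order cannot be told apart from genotype.

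GLI2 mRNA itself was still present in the knockout. GLI2 (chr2:120735623-120992653, plus strand) stood at 6.42, 5.65 and 4.97 CPM (counts scaled to library size, with TMM factors) in the 3 WT libraries and at 3.97, 4.14 and 4.39 CPM in the 3 KO libraries. Every KO library was below every WT library. The means were 5.68 ± 0.722 and 4.16 ± 0.211 CPM (SD, n = 3), a log2 fold change of -0.44 ± 0.09 (standard error; adjusted p = 0.000243). Here and below, adjusted p-values come from edgeR's quasi-likelihood test with Benjamini-Hochberg adjustment over all genes tested, and a gene is called when its value is below 0.05. In DMSO the GLI2 difference was -0.23, and the 2 differences did not differ by the test (adjusted p = 0.269). A gene-level count does not show whether the remaining transcripts are edited, so it checks the label only in direction.

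Genes of the Hedgehog pathway differed little between the paclitaxel-treated genotypes. Of 20 tested ligands, receptors and transducers, 4 were called higher and 6 lower in GLI2 KO, where 23.4% of all 21974 tested genes were called higher and 22.2% lower. GLI2 itself, the targeted gene, is among the 6. Without both KO replicate 3 libraries 6 were called higher and 6 lower. The list median was -0.05 on the log2 scale, against -0.01 for all tested genes. HHIP, a decoy receptor that binds Hedgehog ligands, was the most raised at 0.57, from 1.25 to 1.86 CPM, but without WT replicate 2 it was no longer called (0.36, adjusted p = 0.0526). GPR161, a ciliary receptor that represses the pathway, was lower (26.5 to 20.4 CPM, -0.37), as was BOC, a ligand co-receptor (-0.34).

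PTCH1 and GLI1, the usual readouts of GLI activity, are named for that role and after their values were seen, as are GLI3 and PTHLH. PTCH1 was at 15.4, 16.5 and 16.6 CPM in WT and 13.4, 14.99 and 14.4 CPM in GLI2 KO, without overlap (-0.18 ± 0.06, adjusted p = 0.0091), and without KO replicate 1 it was no longer called (-0.14, adjusted p = 0.0691). GLI1 was at or below 0.431 CPM in every library, its groups overlapped, and it was not called (0.20 ± 0.26, adjusted p = 0.567). GLI3, the GLI family member that mostly acts as a repressor, was lower in all 3 KO libraries (27.7 to 22.6 CPM, -0.29). PTHLH lay between 0.976 and 1.44 CPM in the 6 libraries with overlapping groups (adjusted p = 0.573).

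Among 22 tested genes reported elsewhere as GLI targets, 5 were called higher and 9 lower, with a median of 0.02. The lowest was IGFBP6, a secreted binder of insulin-like growth factor II, at 17.7, 16.04 and 17.1 CPM in WT and 8.31, 8.48 and 8.95 CPM in KO (-0.98 ± 0.07, adjusted p = 9.78e-12). The highest was BMP2, a bone morphogenetic protein, at 2.02, 2.15 and 2.09 CPM in WT and 6.91, 7.15 and 7.12 CPM in KO (1.76 ± 0.09, adjusted p = 1.69e-14). HEY1, a Notch-responsive repressor, was also higher (3.12 to 6.55 CPM, 1.07). In DMSO these 3 genes differed in the same direction, with log2 values of -0.97, 2.15 and 1.358, and the difference between treatments was not called for any of them.

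Promoter sequence was read from RefSeq (GRCh38.p14) over 250 bases before to 50 bases after each transcription start, for 13024 tested genes with an entry, both strands searched. The GLI consensus GACCACCCA was in the promoters of 0.315% of these genes, of 0.368% of those called higher, 0.446% of those called lower and 0.214% of those not called. A gene counted here and below if any of its promoters matched. Promoter by promoter, the letters were in 0.226% of the tested genes' promoters and 0.236% of all 35116 promoters of that length. Of 17 Hedgehog pathway members with an entry, 1 held a match, PTCH1. Its site is shown because it is the reference GLI target, with the reverse complement of the letters in capitals, read 5′ to 3′ on the gene's minus strand at chr9:95509410-95509459.
PTCH1: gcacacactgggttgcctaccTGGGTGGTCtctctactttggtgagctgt

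Across all expressed genes the 2 genotypes differed widely but mostly by small amounts. Of 21974 genes tested, 10028 were called (45.6%), 5152 higher and 4876 lower in GLI2 KO. The median absolute log2 fold change of the called genes was 0.34, and 65.0% of them differed by less than 0.5. At least 2-fold differences were called for 1398 genes (6.36%), 766 higher (3.49%) and 632 lower (2.88%), and 843 of these were under 1 CPM in both groups. In 96.9% of called genes the KO and WT libraries did not overlap, which held for 55.2% of all tested genes. Called genes were more frequent among protein-coding genes, at 55.2% of 14184, with 4409 higher and 3417 lower. The gene lists hold mostly such genes, so the shares of all tested genes are a low base for them.

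Most of the strong genotype differences were also there without the drug. Of 196 genes called at least 2-fold under paclitaxel with at least 5 CPM in a group, 155 were also called at least 2-fold in the same direction in DMSO. In DMSO 9139 genes were called (41.6%), and 6265 genes were called in the same direction in both treatments, which is 62.5% of the paclitaxel calls and 68.6% of the DMSO calls. The difference between the 2 genotype effects, tested as an interaction, was called for 2963 genes (13.5%), 1441 more positive under paclitaxel (6.56%) and 1522 more negative (6.93%). With factors from library totals in place of TMM the positive share of these rose from 48.6% to 58.6%. Among the paclitaxel calls, 2102 (20.96%) had an effect that differed from DMSO. These comprised 365 with a larger effect of the same direction, 586 with a smaller one, 224 of opposite direction and 927 called under paclitaxel only. The interaction uses the same paclitaxel libraries as the genotype comparison, so these tests are not independent.

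**Figure D1:**
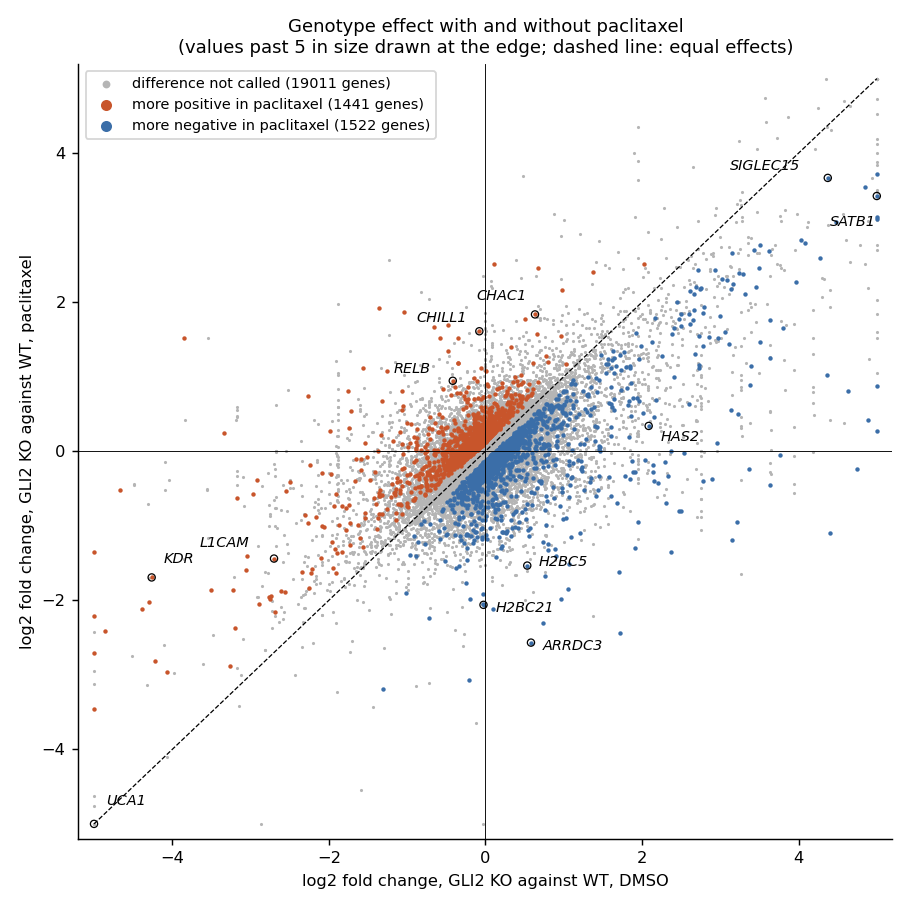
Each point is 1 tested gene, with the log2 fold change of GLI2 KO against WT in DMSO on the x axis and in paclitaxel on the y axis, orange or blue where the difference between treatments was called. SIGLEC15 and UCA1 lie far from 0 on both axes, whereas ARRDC3, H2BC21 and CHILL1 lie far from 0 on the paclitaxel axis and near 0 on the DMSO axis.

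A set of transcripts was close to absent in one genotype. TRIM61, a gene of the tripartite-motif family (chr4:164954446-164977668), had 7.41, 8.17 and 7.45 CPM in WT and 0, 0.0108 and 0.0181 CPM in KO, or 2148 against 3 counts. That is a ratio of 753 (exact binomial 95% interval 257 to 3654), and TRIM61 shares 33.2% of its exon bases with AC106872.5. The long noncoding RNA PICSAR had 268 counts over the WT libraries and 0 over the KO libraries, at least 93.9-fold lower when set against a floor of 3 counts over the group. LINC02475 had 507 against 2 counts. In the other direction, the pseudogene E2F6P4 had 1 count in WT and 1045 in KO (ratio 994, interval 178 to 39284). MPZL2, a cell adhesion protein of epithelia, had 3 against 357 counts (ratio 113, interval 38.4 to 551). Of 21974 tested genes, 21 had 3 counts or fewer over the WT libraries and more in KO, and 14 the other way. Such genes pass the filter on low counts only through a group where they are higher. Intervals and floors cover counting error only.

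UCA1, a long noncoding RNA first described in bladder cancer and tied to drug resistance in several tumours (chr19:15828206-15836326), was at 20.5, 21.4 and 26.1 CPM in WT and at 0.199, 0.323 and 0.353 CPM in KO (-6.25 ± 0.16, adjusted p = 1.15e-14). The KO libraries were far below all WT libraries, and 11.8% of its exon bases overlap LINC01764. Other genes with large falls were GPAT2, a mitochondrial glycerol-phosphate acyltransferase (22.6 to 3.06 CPM, -2.88), SERPINB9, the granzyme B inhibitor (9.20 to 1.44 CPM, -2.66), IGFN1, a muscle-type immunoglobulin and fibronectin domain protein (31.0 to 6.32 CPM, -2.30), RPL22L1, a ribosomal protein paralogue (109 to 29.6 CPM, -1.88), and S1PR3, a sphingosine-1-phosphate receptor (29.8 to 8.38 CPM, -1.83). All 5 were also lower in DMSO.

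SIGLEC15, a sialic-acid-binding immune checkpoint protein that also serves in osteoclasts, showed the largest rise among genes of at least 5 CPM. It was at 0.689, 0.577 and 0.740 CPM in WT and 9.11, 9.12 and 7.46 CPM in KO (3.67 ± 0.11, adjusted p = 2.77e-18), and the effect was larger still in DMSO (4.37). The chromatin organiser SATB1 was at 0.463, 0.455 and 0.503 CPM in WT and 5.02, 4.93 and 5.38 CPM in KO (3.43 ± 0.13, adjusted p = 9.49e-17). In DMSO it had 9 counts over the 3 WT libraries, some of which were under 3 counts, and 788 over the KO libraries, a ratio of 91.9 (exact binomial 95% interval 48.2 to 201.8), so that its fitted DMSO value of 6.49 is known only roughly. Both genes thus had a genotype difference that was smaller under paclitaxel, by 0.71 (adjusted p = 0.0184) and a fitted 3.06 (adjusted p = 3.58e-06), and for SIGLEC15 that difference was no longer called without WT replicate 3 (-0.62, adjusted p = 0.0742). Further strong rises were PWWP3B (0.847 to 9.95 CPM, 3.55), NNMT, which methylates nicotinamide (1.24 to 10.5 CPM, 3.08), SESN3, a stress-induced sestrin (1.02 to 8.61 CPM, 3.08), PRKG1, the cyclic GMP-dependent kinase (0.840 to 6.12 CPM, 2.86), and RAB17, an epithelial trafficking GTPase (3.69 to 20.9 CPM, 2.51).

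ARRDC3, an alpha-arrestin that directs surface receptors to degradation, was the called gene of at least 5 CPM with the most negative difference between treatments. ARRDC3 (chr5:91368724-91383359, minus strand) was at 222, 241 and 271 CPM in WT and at 38.8, 40.4 and 44.6 CPM in KO under paclitaxel (-2.57 ± 0.12, adjusted p = 1.57e-07). In DMSO both genotypes were low, 18.4 and 27.6 CPM, and the KO was the higher of the 2 (0.58). The difference between treatments was -3.15 (adjusted p = 1.57e-05). Its antisense neighbour ARRDC3-AS1 covers 2.94% of its exon bases, and the sources used here do not say whether counting used the strand.

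**Figure D2:**
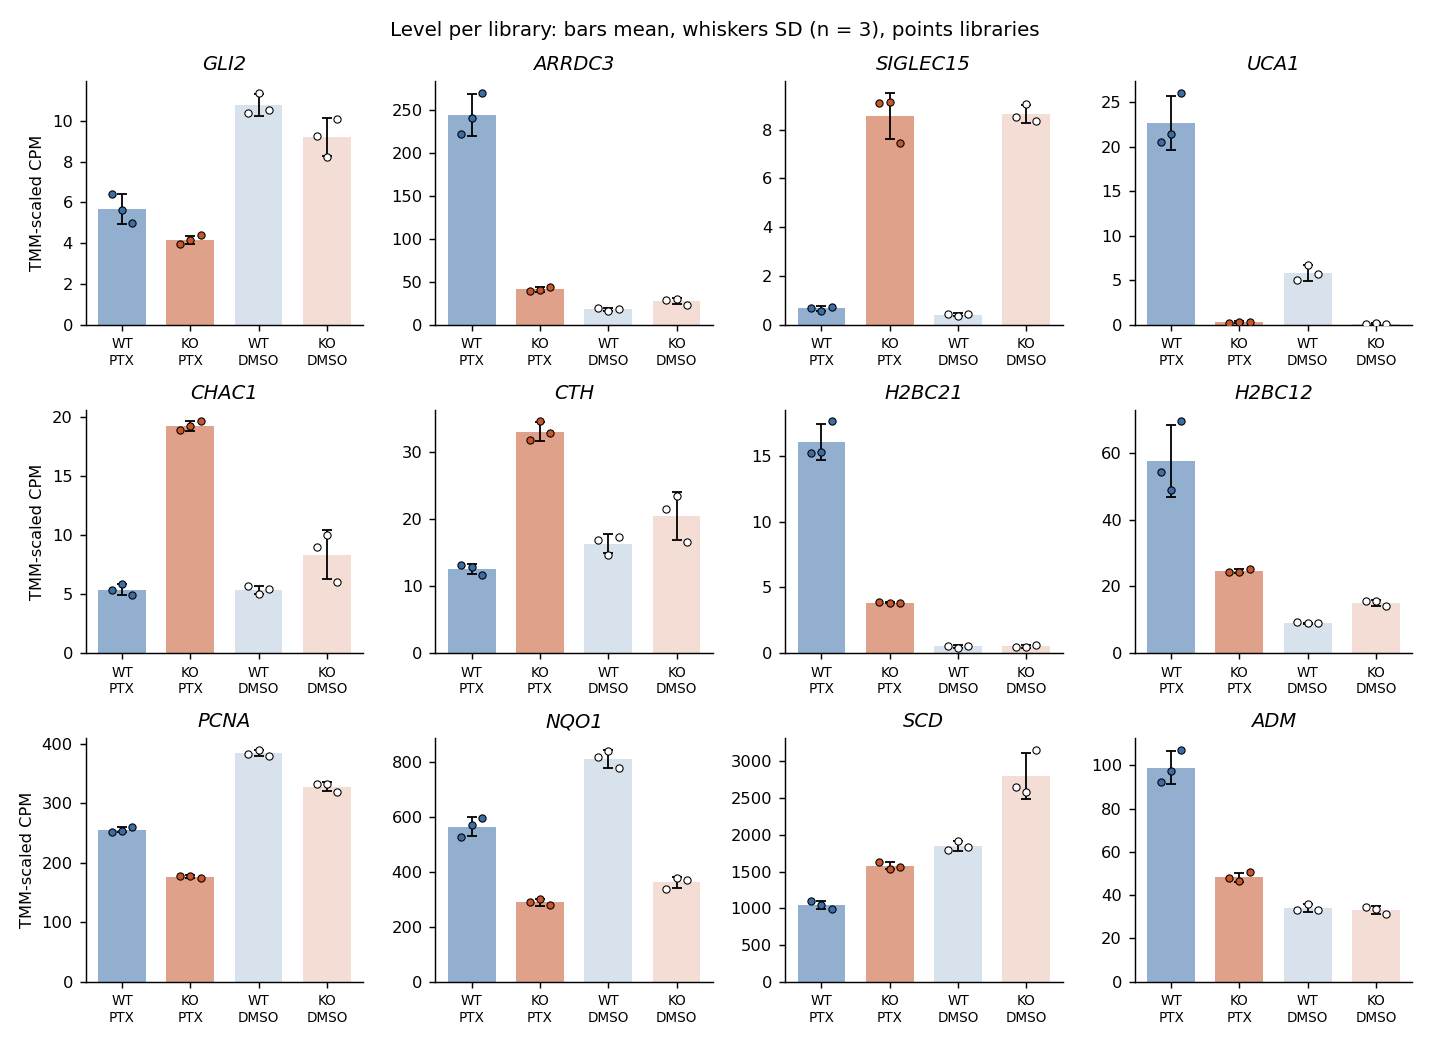
Levels of 12 genes in TMM-scaled CPM, with a bar for the mean, whiskers for the SD (n = 3) and a point for each library, for WT and GLI2 KO in paclitaxel (PTX) and in DMSO. ARRDC3 reached 222 to 271 CPM in WT under paclitaxel and at most 44.6 CPM in KO, and CHAC1 was at 4.96 to 5.86 CPM in WT and 18.8 to 19.6 CPM in KO.

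Genes of the integrated stress response and amino acid supply were higher in the KO cells under paclitaxel. This response begins with kinases that phosphorylate eIF2-alpha, which slows general translation and raises the factor ATF4, and ATF4 then turns on genes for amino acid synthesis, uptake and tRNA charging. Of 29 tested members, 21 were called higher and 2 lower, with a median of 0.39 against -0.01 for all tested genes. In DMSO the median was -0.03. The difference between treatments was called in the positive direction for 17 members and in the negative for 2, beside 6.56% and 6.93% of all genes. Without both KO replicate 3 libraries these counts were 24 and 2, and 21 and 3.

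CHAC1, which degrades glutathione and is a classical ATF4 target, was at 5.34, 5.86 and 4.96 CPM in WT and 18.8, 19.2 and 19.6 CPM in KO. The lowest KO library was more than 3 times the highest WT library (1.84 ± 0.15, adjusted p = 1.91e-06), and the log2 difference in DMSO was 0.63 (difference between treatments 1.20, adjusted p = 0.00521). CTH, which makes cysteine from cystathionine, was at 13.2, 12.9 and 11.7 CPM in WT and 31.8, 34.7 and 32.8 CPM in KO (1.39 ± 0.12, adjusted p = 3.87e-06). Its difference in DMSO was 0.33, and the treatments differed by 1.07 (adjusted p = 0.00263).

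ASNS, the asparagine synthetase, was at 1.80, 1.70 and 1.32 CPM in WT and 3.66, 3.91 and 3.33 CPM in KO (1.18 ± 0.15, adjusted p = 1.39e-06). In DMSO it was not called, and its difference between treatments was 1.53 (adjusted p = 0.000119). Overlapping genes cover 44.6% of its exon bases, so its counts are uncertain. STC2, a secreted glycoprotein of stressed cells, went from 6.60 to 12.7 CPM (0.95), and SESN2, a sestrin that senses leucine, from 12.2 to 23.8 CPM (0.96). VLDLR, a lipoprotein receptor that rises in stressed cells, went from 1.85 to 4.51 CPM (1.28).

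The following members are named for their place in the pathway and after their values were seen. ATF4 mRNA itself was not called, with 256, 254 and 259 CPM in WT and 255, 256 and 247 CPM in KO (-0.02 ± 0.06, adjusted p = 0.79). DDIT3, the CHOP factor, was at 23.4, 22.98 and 21.9 CPM in WT and 36.4, 37.2 and 37.03 CPM in KO (0.70 ± 0.13). FGF21, a stress-induced hormone, was very low in WT at 0.0904, 0.0555 and 0.0296 CPM and reached 0.631, 0.431 and 0.535 CPM in KO (3.18 ± 0.42). GDF15, another stress-induced secreted factor (-0.22), and SLC7A1, a cationic amino acid transporter (-0.14), were the members called lower.

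Aminoacyl-tRNA synthetases, the enzymes that load amino acids onto tRNAs, divided into a larger group that was higher and a smaller one that was lower. Of 20 tested members 12 were called higher and 6 lower, with a median of 0.17 under paclitaxel and -0.06 in DMSO. The difference between treatments was positive and called for 13 and negative for 0. YARS1, which charges tyrosine, was at 111, 110 and 106 CPM in WT and 183, 187 and 182 CPM in KO (0.75 ± 0.04, adjusted p = 1.55e-12). CARS1 went from 81.4 to 116 CPM (0.52), AARS1 from 220 to 309 CPM (0.49) and GARS1 from 177 to 237 CPM (0.42).

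The letters TGATGCAA, a form of the composite C/EBP-ATF site through which ATF4 acts, were searched after these values were seen. They were in the promoters of 0.799% of the 13024 tested genes, 1.24% of those called higher, 0.637% of those called lower and 0.608% of those not called. Promoter by promoter, they were in 0.588% of the tested genes' promoters and 0.866% of all promoters. Among members with a promoter entry, 3 of 23 genes of the integrated stress response held a match (CHAC1, FGF21 and CEBPG) and 6 of 16 tRNA synthetases did (AARS1, CARS1, IARS1, MARS1, NARS1 and TARS1). All 9 were called higher, where 21 of 29 and 12 of 20 tested members of these lists were called higher with or without a match. With any sixth base (TGATGNAA, in 2.95% of tested genes, 2.19% of their promoters and 3.62% of all promoters) 7 and 7 members matched, of which 12 were called higher. Of the others SLC7A1 was called lower, and SLC3A2, a heavy chain of amino acid transporters named after its value was seen, was not called. CEBPG, a C/EBP family partner of ATF4, was at 48.9, 49.2 and 43.8 CPM in WT and 66.1, 66.5 and 66.0 CPM in KO (0.49 ± 0.06), and IARS1, the isoleucine enzyme, at 329, 331 and 313 against 386, 394 and 379 CPM (0.25 ± 0.04). CEBPG and IARS1 are also named after their values were seen. The sites of 5 of these genes follow, as 50 bases on the gene's strand with the match in capitals, either as TGATGCAA or as its reverse complement. A match describes the letters and is not evidence of binding.
CHAC1, chr15:40953241-40953290, plus strand: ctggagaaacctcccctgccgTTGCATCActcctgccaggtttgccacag
FGF21, chr19:48755449-48755498, plus strand: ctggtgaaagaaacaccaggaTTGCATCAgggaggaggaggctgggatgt
CEBPG, chr19:33374050-33374099, plus strand: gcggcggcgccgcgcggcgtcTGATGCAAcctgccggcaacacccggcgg
AARS1, chr16:70289665-70289714, minus strand: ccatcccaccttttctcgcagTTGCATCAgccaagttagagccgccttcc
IARS1, chr9:92293698-92293747, minus strand: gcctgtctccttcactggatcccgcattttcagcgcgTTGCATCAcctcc

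The unfolded protein response of the endoplasmic reticulum, which raises chaperones and degradation factors when proteins misfold, was also higher. Of 21 tested members 16 were called higher and 1 lower, with a median of 0.24, against 9 and 3 with a median of 0.13 in DMSO, and the difference between treatments was called for 3 members in the positive and 1 in the negative direction (4 and 2 without both KO replicate 3 libraries). The count called higher ran from 10 to 18 over the alternative settings. HYOU1, a reticulum chaperone, was at 264, 259 and 250 CPM in WT and 430, 416 and 401 CPM in KO (0.69 ± 0.05), and its DMSO value was 0.68. XBP1, the factor that is spliced by IRE1, went from 49.5 to 75.8 CPM (0.61) and was at 0.15 in DMSO, with a called difference of 0.46 (adjusted p = 0.00365). PDIA4, a disulphide isomerase, went from 147 to 199 CPM (0.43). HSPA5, the main reticulum chaperone, named after its value was seen, was at 606, 579 and 519 CPM in WT and 873, 811 and 665 CPM in KO and was not called (0.46 ± 0.18, adjusted p = 0.0643).

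**Figure D3:**
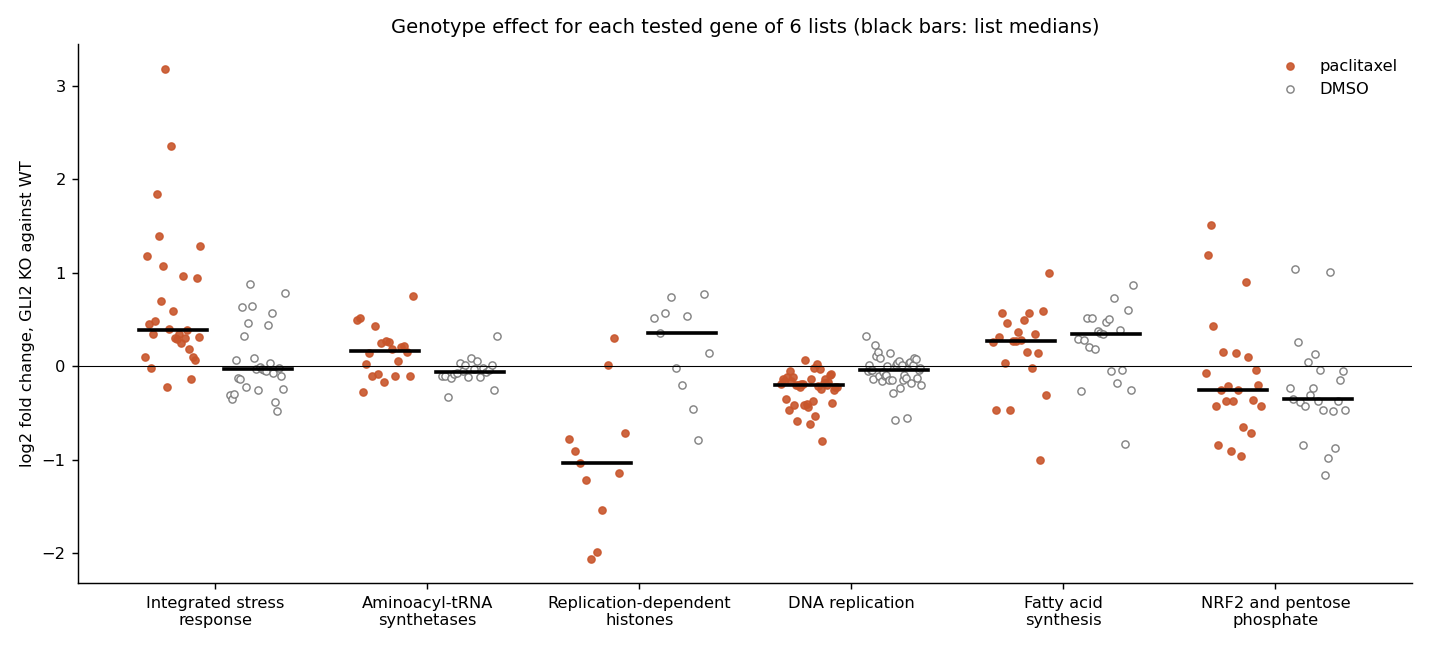
Each point is a tested gene of 1 of 6 lists, with its log2 fold change of GLI2 KO against WT on the y axis, filled for paclitaxel and open for DMSO, and a black bar at the list median. The median of the integrated stress response is 0.39 under paclitaxel and -0.03 in DMSO, and that of the histones is -1.04 and 0.35.

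Replication-dependent histone genes were lower in the KO cells under paclitaxel and not in DMSO. Histone genes of this kind are switched on in S phase to package new DNA, and most of their mRNA ends in a stem-loop in place of a poly(A) tail, so that poly(A)-selected RNA holds only the polyadenylated portion. Of 11 tested genes among 15 listed, 9 were called lower and 0 higher, with a median of -1.04 against 0.35 in DMSO. The difference between treatments was negative and called for 7 and positive for 0.

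H2BC21, an H2B gene at chr1:149884459-149886652, was at 15.2, 15.3 and 17.6 CPM in WT and 3.92, 3.79 and 3.83 CPM in KO (-2.06 ± 0.08, adjusted p = 3.87e-16). In DMSO both genotypes were low, at 0.531 and 0.526 CPM, and the difference between treatments was -2.04 (adjusted p = 4.61e-07). H2BC4 was at 8.96, 9.02 and 12.98 CPM in WT and 2.57, 2.58 and 2.68 CPM in KO (-1.98). H2BC12 was at 54.3, 48.8 and 69.5 CPM in WT and 24.3, 24.4 and 25.3 CPM in KO (-1.22 ± 0.11, adjusted p = 1.13e-05), whereas in DMSO it was higher in KO (0.74).

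No WT library overlapped a KO library for these 3 genes, and WT replicate 3 was the highest for each. H2BC5 (23.7 to 8.18 CPM, -1.53) and H2AC6, an H2A gene (27.6 to 13.4 CPM, -1.04), behaved alike, with differences between treatments of -2.07 and -1.60. H3C2 and H4C14, named after their values were seen, were not called. Close copies among histone genes may exchange counts, so single members are uncertain.

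The octamer ATTTGCAT, bound by the POU factor OCT1 in H2B promoters, was also searched after these values were seen, and shares the letters TTGCAT with the C/EBP-ATF site. It was in the promoters of 1.98% of tested genes, 2.10% of those called higher, 2.07% of those called lower and 1.86% of those not called. Promoter by promoter, it was in 1.46% of the tested genes' promoters and 1.77% of all promoters. Of 10 histone genes with a promoter entry 4 held it, and these were among the members called lower, which were 9 of the 11 tested. The 4 sites are shown with the octamer or its reverse complement in capitals. H2AC6 and H2BC4 face away from each other and share 1 stretch, printed on both strands.
H2BC21, chr1:149886700-149886749, minus strand: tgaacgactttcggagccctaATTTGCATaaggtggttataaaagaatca
H2BC12, chr6:27146876-27146925, minus strand: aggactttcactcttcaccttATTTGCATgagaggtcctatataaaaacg
H2BC4, chr6:26124021-26124070, minus strand: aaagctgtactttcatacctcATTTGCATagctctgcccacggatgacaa
H2AC6, chr6:26124021-26124070, plus strand: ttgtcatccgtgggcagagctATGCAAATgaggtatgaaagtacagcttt

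DNA replication genes were lower as well, by smaller amounts. Of 40 tested genes of replication and S phase, 0 were called higher and 33 lower, with a median of -0.20, against -0.04 in DMSO. The difference between treatments was called for 27 in the negative and 0 in the positive direction. Without both KO replicate 3 libraries, 1 was called higher and 33 lower, and the differences were 28 and 0. In bulk RNA, fewer cells in S phase and less of these mRNAs per cell cannot be told apart.

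PCNA, the sliding clamp of the replicative polymerases, was at 252, 254 and 260 CPM in WT and 178, 177 and 174 CPM in KO (-0.53 ± 0.03, adjusted p = 7.46e-14). Its groups were far apart for their spread, and the effect in DMSO was -0.23 (difference -0.30, adjusted p = 1.87e-05). POLE2, a subunit of polymerase epsilon, was at 60.3, 60.0 and 57.8 CPM in WT and 33.2, 34.2 and 34.6 CPM in KO (-0.80). Its difference between treatments was -0.25, so most of this fall was there in DMSO too. GINS2, part of the replicative helicase with the MCM proteins, went from 34.7 to 23.03 CPM (-0.59, difference -0.43), and MCM6, a helicase subunit, from 105 to 68.5 CPM (-0.62). For MCM6 the DMSO effect was nearly as large at -0.57, and the difference was not called (adjusted p = 0.525).

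Genes of G2/M and mitosis did not share this direction. Of 42 tested members 10 were called higher and 12 lower, with a median of -0.02. That is 52.4% called, beside 55.2% of all protein-coding genes. The lowest were MAD2L1, which holds the spindle checkpoint, at 104 and 58.7 CPM (-0.83), and CCNA2, the S and G2 phase cyclin, at 98.6, 95.1 and 86.8 CPM in WT and 57.6, 55.1 and 53.4 CPM in KO (-0.76). Both lie on chromosome 4, whose tested genes as a whole had a median of -0.01, with 231 called higher and 216 lower. Both genes were as low in DMSO (-0.74 and -0.83).

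Lipid synthesis genes were mostly higher in GLI2 KO with and without the drug. These genes respond to SREBP factors, which are released when membrane sterols run low. Of 21 tested fatty acid and triglyceride genes 15 were called higher and 4 lower (median 0.27, DMSO 0.35), and of 25 cholesterol synthesis genes 16 were called higher and 2 lower (median 0.16, DMSO 0.18), or 18 and 3 without both KO replicate 3 libraries. SREBF1, which encodes the SREBP-1 factor, was at 41.8, 37.6 and 38.0 CPM in WT and 80.8, 75.8 and 77.0 CPM in KO (0.99 ± 0.08, adjusted p = 1.03e-06).

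SCD, the stearoyl-CoA desaturase, was at 1101, 1045 and 994 CPM in WT and 1631, 1540 and 1562 CPM in KO (0.59 ± 0.07, adjusted p = 1.56e-05), all KO libraries being above all WT libraries. ACSS2, which makes acetyl-CoA from acetate, went from 65.1 to 96.6 CPM (0.57). INSIG1, the reticulum anchor of the SREBP pathway, went from 212 to 347 CPM (0.71), and SC5D, a late sterol desaturase, from 142 to 206 CPM (0.54). None of these 5 genes had a called difference between treatments.

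Antioxidant genes governed by NRF2 were mostly lower in the KO cells. Of 23 tested members 14 were called lower and 6 higher, with a median of -0.26 (DMSO -0.35). NQO1, a quinone reductase and the usual NRF2 marker, was at 527, 570 and 594 CPM in WT and 288, 302 and 277 CPM in KO (-0.96 ± 0.05, adjusted p = 3.43e-11), and at -1.16 in DMSO. HMOX1, the heme oxygenase, was at 20.4, 21.4 and 20.5 CPM in WT and 12.2, 11.9 and 9.33 CPM in KO (-0.90 ± 0.09). Its effect in DMSO was 0.13, and the treatments differed by -1.03 (adjusted p = 0.00016). AKR1C1, an aldo-keto reductase with close paralogues, went the other way (1.92 to 4.37 CPM, 1.19) and differed from DMSO by 1.54.

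Aldehyde dehydrogenases, which clear reactive aldehydes, had 8 of 16 tested members called lower and 1 higher (median -0.16). ALDH3A1 was at 26.7, 28.0 and 32.8 CPM in WT and 6.19, 6.50 and 7.61 CPM in KO (-2.10 ± 0.29, adjusted p = 0.000346). ALDH1A3, a retinaldehyde dehydrogenase linked to stem-like breast cancer cells, went from 6.20 to 2.09 CPM (-1.57). Both were also lower in DMSO.

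Genes that bear directly on paclitaxel gave a mixed picture. ABCB1 encodes P-glycoprotein, the pump that exports paclitaxel. It was at 0.305, 0.189 and 0.217 CPM in WT and 1.79, 1.76 and 1.73 CPM in KO (2.89 ± 0.22, adjusted p = 5.07e-11), higher in every KO library but low throughout. In DMSO its levels were 0.00784 and 0.0149 CPM, under the 3-count floor of a library (0.0290 to 0.0360 CPM in the paclitaxel libraries), and the difference between treatments was not called (adjusted p = 0.442). The list of 20 drug efflux and detoxification genes had 2 called higher and 5 lower (1 and 8 without both KO replicate 3 libraries), with GSTP1, a glutathione transferase, at 185 and 128 CPM (-0.53), GSTM3 at -0.46 and CYP1B1, an oestrogen-metabolising cytochrome, at -0.43.

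Of 11 tested alpha and beta tubulins 1 was called higher and 5 lower (median -0.11, DMSO 0.05). TUBA1A was higher, at 80.0, 76.7 and 75.2 CPM in WT and 120, 107 and 105 CPM in KO (0.52 ± 0.04), and TUBA4A lower, at 129, 127 and 129 against 99.9, 92.5 and 90.7 CPM (-0.44 ± 0.04). TUBB2A was at -0.27 and TUBB6 at -0.21, both genes of beta-tubulin, the paclitaxel-binding subunit. Tubulin genes are close copies, and their counts may be shared. Among 24 microtubule-associated proteins and stathmins 10 were called higher and 8 lower. MAP2, a stabiliser best known in dendrites, was at 0.994, 1.28 and 0.888 CPM in WT and 4.89, 4.32 and 4.44 CPM in KO (2.11, DMSO 3.31), and MAPT, which encodes tau, fell from 2.85 to 1.59 CPM (-0.85).

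Apoptosis genes moved in both directions. Of 25 tested p53 targets 10 were called higher and 5 lower, and of 18 BCL2 family members 4 and 6. These are 60.0% and 55.6% of the lists, near the 55.2% called among all protein-coding genes. BBC3, the PUMA death factor, was at 5.16, 4.61 and 4.34 CPM in WT and 9.04, 8.88 and 7.42 CPM in KO (0.84 ± 0.09, adjusted p = 1.1e-07, difference from DMSO 0.55). CDKN1A, the p21 cell cycle inhibitor, went from 18.2 to 27.8 CPM (0.61). BCL2L11, the BIM death factor, was lower at 30.0 and 24.0 CPM (-0.32), and the survival factor MCL1 was higher at 299, 308 and 292 against 355, 370 and 362 CPM (0.27). MDA-MB-231 carries mutant p53, and the list is of genes that p53 can regulate in other cells.

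**Figure D4:**
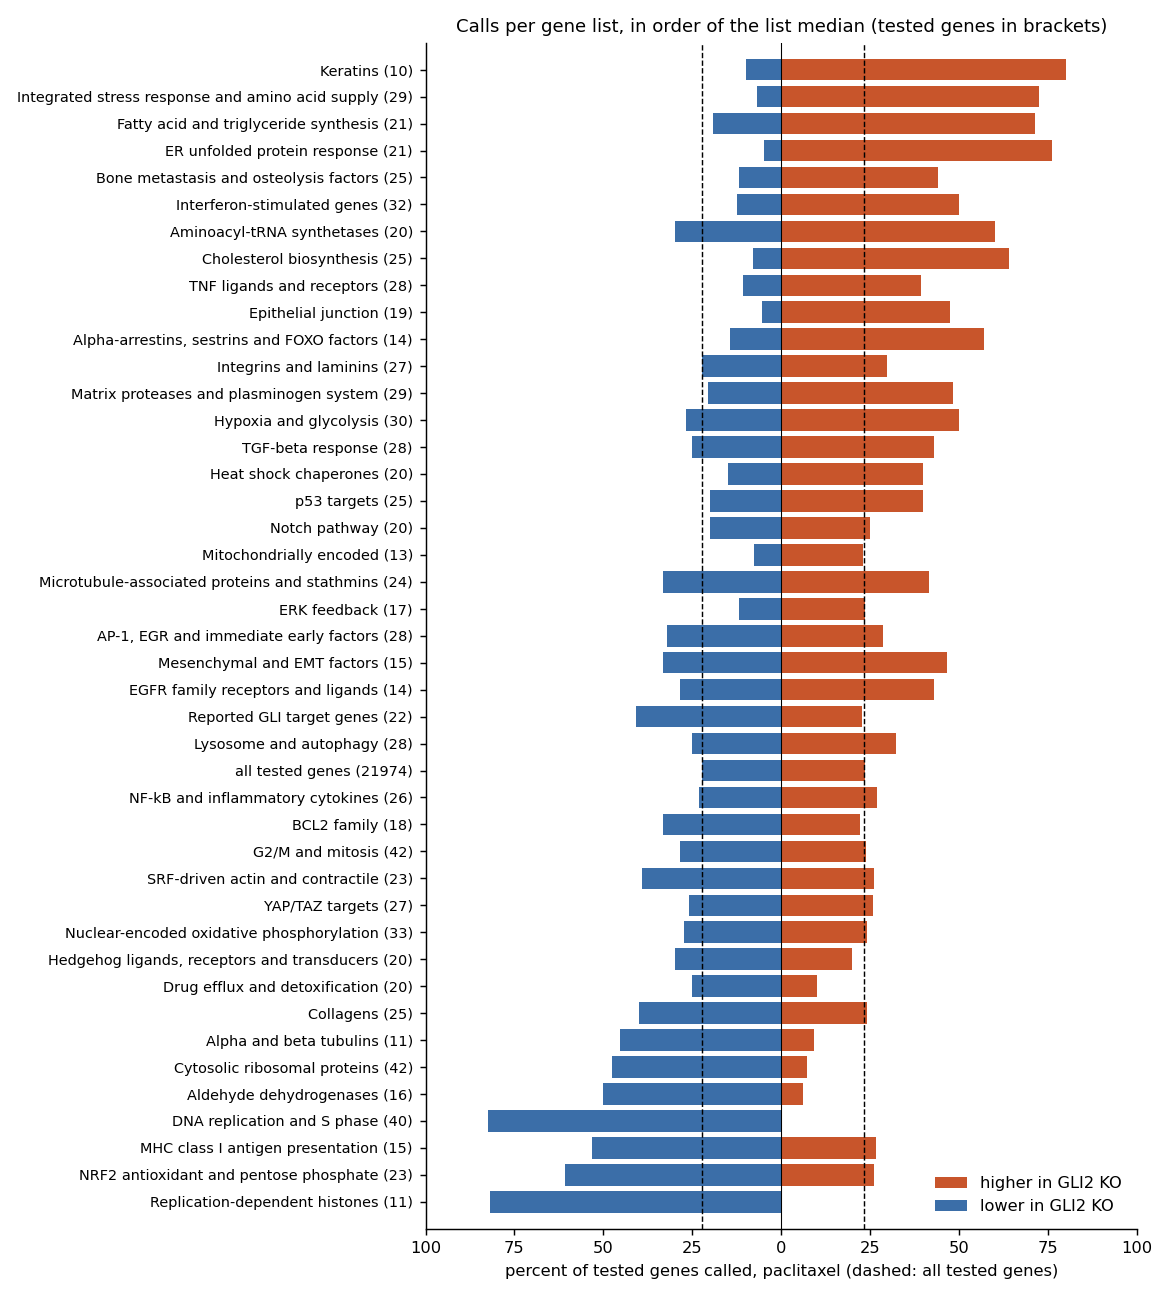
For each gene list, the percent of its tested genes called higher (right, orange) or lower (left, blue) in GLI2 KO under paclitaxel, in order of the list median, with dashed lines at the 23.4% and 22.2% of all tested genes. Among protein-coding genes, which make up most of the lists, both shares are larger. Replication and histone lists have 0 members called higher, and the 21 of 29 integrated stress response genes called higher reach well past the dashed line.

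JUN and ADM were lower in GLI2 KO cells under paclitaxel and did not differ by the test in DMSO. JUN, an AP-1 subunit, was at 262, 261 and 296 CPM in WT and 144, 141 and 146 CPM in KO (-0.93 ± 0.12, adjusted p = 0.000272). In DMSO the value of JUN was -0.05, and the difference between treatments was -0.88 (adjusted p = 0.0131). ADM, the vasodilator peptide adrenomedullin and a hypoxia gene, was at 92.2, 97.2 and 107 CPM in WT and 47.7, 46.6 and 50.5 CPM in KO (-1.03 ± 0.05, adjusted p = 3.89e-11), with -0.04 in DMSO. The KO libraries of both genes lay far below the WT libraries. The hypoxia and glycolysis list that holds ADM went mostly the other way, with 15 of 30 called higher and 8 lower (median 0.11, DMSO 0.22), or 19 and 5 without both KO replicate 3 libraries.

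The AP-1 and early-response list as a whole had 8 of 28 called higher and 9 lower, or 60.7%, beside 55.2% of all protein-coding genes. EGR3, an early growth response factor, was higher under paclitaxel (1.70 to 3.70 CPM, 1.12) and lower in DMSO (-1.57), a difference of 2.69. RELB, a subunit of the noncanonical NF-kB pathway, was at 12.6, 12.99 and 11.5 CPM in WT and 23.01, 25.4 and 23.02 CPM in KO (0.95 ± 0.12, adjusted p = 7.66e-05), was lower in DMSO (-0.42), and differed by 1.363 between treatments (adjusted p = 0.00123). Among 26 NF-kB and cytokine genes 7 were called higher and 6 lower (50.0%), with a median of -0.01.

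TGF-beta is the pathway downstream of which GLI2 is known to act in bone-metastatic cells. Of 28 tested response genes 12 were called higher and 7 lower (median 0.11, DMSO 0.10). CCN2, a matricellular growth factor also driven by YAP, was at 694, 736 and 826 CPM in WT and 444, 440 and 491 CPM in KO (-0.71), and F3, tissue factor, went from 482 to 313 CPM (-0.62).

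Other members of that list were higher. INHBA, the activin A subunit, was at 6.79, 7.39 and 6.30 CPM in WT and 16.3, 17.3 and 16.1 CPM in KO (1.28 ± 0.07), and LTBP1, which stores latent TGF-beta in the matrix, went from 21.9 to 51.9 CPM (1.25). Of 27 YAP/TAZ target genes 7 were called higher and 7 lower, or 51.9%, beside 55.2% of all protein-coding genes. Of the EGF family, AREG, the ligand amphiregulin, went from 9.51 to 20.3 CPM (1.10), and ERRFI1, a feedback inhibitor of EGFR, from 155 to 452 CPM (1.55), and it lies in a stretch of chromosome 1 whose genes were higher at the median.

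Factors that tumour cells use in bone were more often higher than lower, also without the drug. Of 25 tested genes 11 were called higher and 3 lower (median 0.22, DMSO 0.61), or 14 and 2 without both KO replicate 3 libraries. MMP1, the interstitial collagenase, was at 0.734, 0.743 and 0.444 CPM in WT and 3.94, 3.57 and 3.06 CPM in KO (2.47 ± 0.19, adjusted p = 2.32e-10), and MMP13, another collagenase, went from 0.645 to 2.06 CPM (1.66). SPARC, a collagen-binding protein of bone matrix, went from 6.12 to 15.5 CPM (1.34), and TNFRSF11B, osteoprotegerin, from 4.30 to 8.77 CPM (1.03). CCN2 was the called member that fell most.

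Matrix and adhesion genes differed member by member. Of 25 collagens 6 were called higher and 10 lower, or 64.0%, beside 55.2% of all protein-coding genes. COL12A1, a fibril-associated collagen, was at 47.9, 49.5 and 49.1 CPM in WT and 112, 113 and 120 CPM in KO (1.23 ± 0.03, adjusted p = 5.04e-20), whereas COL4A1 of basement membranes was lower (51.1 to 29.9 CPM, -0.77). ITGA10, a collagen-binding integrin, went from 5.51 to 19.8 CPM (1.85) and ITGB4, of hemidesmosomes, from 8.34 to 4.22 CPM (-0.99).

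Epithelial genes were more often higher than lower in this mesenchymal line. Of 19 junction genes 9 were called higher and 1 lower, and of 10 keratins 8 and 1 (medians 0.14 and 0.40, DMSO 0.11 and 0.53). DSP, desmoplakin, was at 135, 134 and 137 CPM in WT and 201, 206 and 220 CPM in KO (0.63 ± 0.03), and CLDN1, a tight junction claudin, went from 3.69 to 8.61 CPM (1.22). ESRP1, an epithelial splicing factor, went from 0.521 to 2.59 CPM (2.32). Mesenchymal genes went both ways, with 7 of 15 tested members called higher and 5 lower (median 0.04, DMSO 0.16). Their log2 values ran from -0.59 to 4.16, and those of the 19 junction genes from -0.62 to 2.32, so the largest rise was in the mesenchymal list. CDH2, the mesenchymal N-cadherin, went from 1.59 to 2.91 CPM (0.88), and the filament VIM was at 2192, 2171 and 2171 CPM in WT and 1960, 1899 and 1735 CPM in KO (-0.22 ± 0.04).

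Some strong genotype differences of the untreated cells were smaller under paclitaxel. HAS2, a hyaluronan synthase, was at 5.73, 7.03 and 7.11 CPM in WT and 8.67, 7.69 and 8.80 CPM in KO (0.34 ± 0.07), against 2.09 in DMSO, a difference of -1.75 (adjusted p = 3.04e-10). KDR, the VEGF receptor VEGFR2, went from 2.82 to 0.865 CPM (-1.69) and from 2.04 to 0.104 CPM in DMSO (-4.26). L1CAM, a neural adhesion molecule, was at 8.55, 8.05 and 8.12 CPM in WT and 3.04, 2.80 and 3.25 CPM in KO (-1.44, DMSO -2.70). In all 3 the KO and WT libraries stayed apart under the drug. CHILL1 showed the other pattern, with 5.50, 5.62 and 4.82 CPM in WT and 15.1, 16.1 and 17.4 CPM in KO under paclitaxel (1.61 ± 0.12, adjusted p = 1.43e-08) and no called effect in DMSO (difference 1.69).

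Neighbouring genes often shared a direction. In windows of 50 neighbouring tested genes, the highest median was 0.92, on chr1:8004404-11754802 from ERRFI1 to AGTRAP, where 43 genes were called higher and 0 lower, and its DMSO median was 0.96. ERRFI1 (1.55) lies there, and so do ENO1, the glycolytic enolase (1309 to 2469 CPM, 0.92), and PGD of the pentose phosphate pathway (111 to 207 CPM, 0.90). PGD is named after its value was seen. A window on chr1:2403964-8005312 had a median of 0.85, and KCNAB2, a potassium channel subunit at 15.3 and 82.7 CPM (2.43), lies in it. The lowest window was on chr5:140664676-141651419, with the protocadherin clusters, whose median was -1.34 (DMSO -1.30) with 42 genes called lower and 2 higher. Alpha and gamma protocadherin genes share 3′ exons within their clusters, so their counts are not separate measurements. Windows on chr4:145097932-158255411 (-0.66) and chr2:171491422-177223958 (-0.56) were low too.

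Chromosomes 13 and 14 had lower medians as a whole, -0.22 and -0.24, with 196 of 401 and 364 of 713 tested genes called lower. The same blocks appeared in DMSO, as the plot by position shows. Copy number was not measured, and its part in these blocks was not tested.

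**Figure D5:**
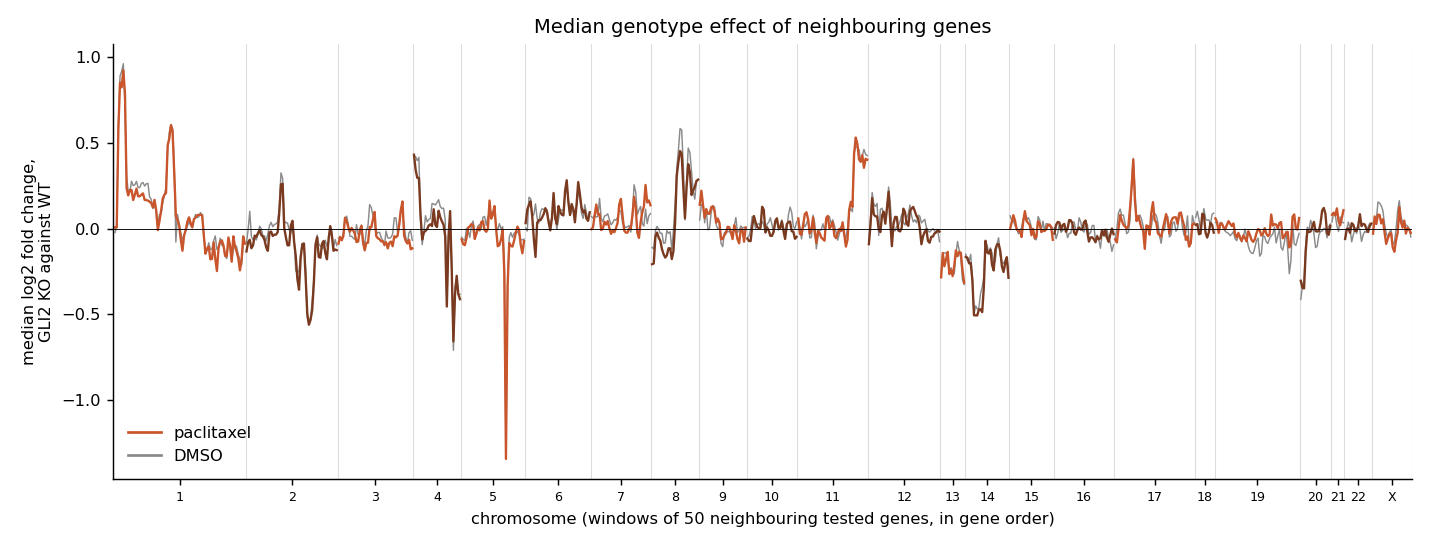
The median log2 fold change of GLI2 KO against WT in sliding windows of 50 neighbouring tested genes, chromosome by chromosome in gene order, in orange and brown for paclitaxel and grey for DMSO. The peak at the start of chromosome 1 reaches 0.92 and the trough on chromosome 5 reaches -1.34, and the grey line follows both.

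Markers of the labelled line were read in both genotypes. Of 10 mesenchymal identity genes 4 were called higher and 2 lower (4 and 1 without both KO replicate 3 libraries), and of 11 hormone receptor and luminal genes 7 were called higher and 3 lower (medians 0.10 and 0.37). The mesenchymal and basal genes CD44 (292 and 278 CPM), AXL (895 and 857 CPM) and EGFR (574 and 602 CPM), named as line markers after their values were seen, were abundant in both genotypes. Log2 values of the 10 mesenchymal genes ran from -0.22 to 1.34, the highest being SPARC, a far less abundant member. Those of the 11 receptor and luminal genes ran from -0.63 to 6.62. PGR, the progesterone receptor that triple-negative tumours lack, was at most 0.953 CPM in a KO library and at or under 0.0113 CPM in WT. Of 12 markers of blood cells 6 were tested, 2 were called higher and 0 lower, and their summed level was 2.24 to 2.61 CPM in WT and 3.72 to 4.14 CPM in KO libraries. CD34, of blood stem cells and vessels, was at 0.392 and 1.34 CPM. Of 10 markers of stromal cells 3 were tested and all 3 were called higher (2 without both KO replicate 3 libraries), with a summed level of 16.9 to 18.2 CPM in WT and 28.2 to 31.5 CPM in KO. PDGFRB, a growth factor receptor of pericytes, was at 7.35, 7.74 and 7.81 CPM in WT and 17.2, 16.6 and 19.2 CPM in KO (1.21), and COL1A1, of fibroblasts and osteoblasts, went from 9.79 to 11.2 CPM (0.19), a call that was lost without any 1 of several libraries (0.13 and adjusted p = 0.193 without WT replicate 3). Of 8 endothelial markers 5 were tested, with 3 called higher and 1 lower (2 and 1 without both KO replicate 3 libraries) and a summed level of 20.7 to 21.8 CPM in WT and 27.4 to 29.5 CPM in KO, most of it ESAM, a junction protein (17.0 and 25.5 CPM). Of 8 kidney and packaging cell markers 2 were tested and both were called lower, among them PAX8 at 4.43 and 2.35 CPM (-0.92). The part of other cell types in any result was not tested.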

How the data were processed

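Polyadenylated RNA of 12 MDA-MB-231b libraries was analysed from the deposited table of counts, which holds whole-number, unnormalised counts per gene (0 columns unused). Reads were handled with STAR, Trim Galore 0.6.7 and DESeq2 1.36.0 on hg38, per the submitters' processing notes, which give no roles. The counting tool, annotation and strand setting are not stated in what was used here. A deposited normalized table was not used. Groups came from the sample titles, and replicate numbers follow accession order and pair nothing.

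Counts of all 12 libraries were fitted with edgeR 4.0.16 (R 4.3.3): TMM factors, filterByExpr at a minimum count of 10 (21974 of 25049 genes, 87.7%), a mean per group, 8 residual degrees of freedom and the robust quasi-likelihood F test, two-sided. Benjamini-Hochberg adjustment ran over all tested genes within a contrast, and genes below 0.05 were called. The contrasts were GLI2 KO against WT in paclitaxel, the same in DMSO, and their difference. Standard errors are the size of the log2 value divided by the root of its F statistic. With 3 against 3 libraries the smallest exact permutation p is 0.1. On simulated data for 21043 genes under this comparison, 93% of 100 genes changed by 0.5 log2 and 100% of 100 changed by 1 log2 were called, with 8 false calls. The simulation gave every gene the same dispersion, without an outlying library, and changed only genes over 1 CPM. It checks the code, and its shares do not carry over to genes that are lower or more variable.

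Genes with 3 counts or fewer in a group are given as ratios of summed counts over library totals with an exact binomial 95% interval, or as bounds against 3 counts. Coordinates come from GENCODE 29 on GRCh38 (23401 genes matched, 93.4%), which may differ from the annotation behind the counts. Promoters are RefSeq entries on GRCh38.p14.

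The members, 48 gene lists and rules were chosen with earlier results of these data known, and no list was tested. Lists are described by counts and medians beside those of all tested genes. Named genes are the 15 largest rises and falls of at least 5 CPM with groups that do not overlap, up to 4 passing members per list, the 10 highest and lowest differences between treatments, the 5 most abundant at least 2-fold genes per direction, up to 5 near-absent genes per direction, GLI2 and cell markers. A selection of these is described, and genes outside the rule are marked. Alternatives were other scaling factors, filters and thresholds, DESeq2 1.42.0, limma 3.58.1 with voom, fitting the paclitaxel libraries alone, and leaving out each replicate. Leaving out both KO replicate 3 libraries, a block of neighbouring library numbers for the difference, and all promoter letters other than the GLI site were chosen after seeing the data. Some genes are not reported here.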

Additional observations from a re-analysis of the deposited data

Results flagged for a closer look

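For 65 of the 131 genes named here, the genotype effect under paclitaxel differed from that in DMSO by edgeR's interaction test (adjusted p below 0.05), 31 in the positive and 34 in the negative direction. All values below are this difference, paclitaxel minus DMSO, on the log2 scale, where 22 genes reached at least 1.

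ARRDC3, the alpha-arrestin, was at -3.15. SATB1 was fitted at -3.06, a value known only roughly, since it rests on 9 counts over the WT libraries in DMSO. Histone genes followed, with H2BC5 at -2.07, H2BC21 at -2.04, H2BC12 at -1.96, H2BC4 at -1.78 and H2AC6 at -1.60. The hyaluronan synthase HAS2 was at -1.75, SESN3 at -1.39, PWWP3B at -1.30, MAP2 at -1.20 and HMOX1 at -1.03. ADM (-0.995), PAX8 (-0.91), JUN (-0.88), GDF15 (-0.87) and SIGLEC15 (-0.71) were next. Of the replication genes, GINS2 was at -0.43, PCNA at -0.30 and POLE2 at -0.25.

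Smaller negative differences were found for CCN2 (-0.42) and F3 (-0.31) of the TGF-beta and YAP lists. Matrix and junction genes gave SPARC (-0.43), CLDN1 (-0.39), ESAM (-0.39), COL4A1 (-0.34), COL12A1 (-0.33), VIM (-0.18) and DSP (-0.15). KCNAB2 (-0.28), TUBB6 (-0.26), TUBA1A (-0.22), BCL2L11 (-0.21) and ENO1 (-0.19) completed this direction.

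In the positive direction EGR3 was at 2.69 and KDR at 2.57, the latter a fall that was smaller under the drug. CHILL1 was at 1.69, AKR1C1 at 1.54, RELB at 1.363 and L1CAM at 1.26. The integrated stress response gave ASNS (1.53), CHAC1 (1.20), CTH (1.07), STC2 (1.06), DDIT3 (0.92), CEBPG (0.62), VLDLR (0.50) and SLC7A1 (0.25), and the unfolded protein response XBP1 (0.46). The tRNA synthetases gave CARS1 (0.62), AARS1 (0.59), YARS1 (0.43), GARS1 (0.39), MARS1 (0.30), TARS1 (0.25), IARS1 (0.24) and NARS1 (0.13).

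The remaining positive values were RPL22L1 (0.68), ITGB4 (0.64), ERRFI1 (0.59), BBC3 (0.55), COL1A1 (0.50), S1PR3 (0.43), GPAT2 (0.38) and ALDH1A3 (0.38). In 14 genes the difference was no longer called under at least 1 alternative setting: ALDH1A3, BCL2L11, CCN2, CLDN1, DSP, F3, JUN, NARS1, SIGLEC15, SPARC, TUBA1A, TUBB6, VIM and VLDLR, with highest adjusted p-values from 0.0548 for SPARC to 0.139 for VLDLR. For CCN2 and JUN this was so only with neighbouring library numbers as a replicate block (adjusted p = 0.0982 and 0.0675).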

How the results depend on the processing

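The labels give no shared replicate numbers, but neighbouring library numbers hold 1 DMSO and 1 paclitaxel library of the same genotype. Their deviations from the group means correlated across genes at 0.011 to 0.18 in the 6 pairs, and 4 of 6 DMSO libraries were closest to their neighbour, a hint from the data and not from the design. With these pairs as a replicate block, chosen after seeing the data, 3832 differences between treatments were called in place of 2963, and 2921 of them were called in both fits in the same direction. Calls under paclitaxel numbered 8837 to 10743 with a replicate left out and 9294 to 10543 under other scalings, filters, DESeq2, limma or the paclitaxel libraries alone, and 1398 when a 2-fold change was also required. The share called higher lay between 43.7% with upper-quartile factors and 54.8% with the 2-fold requirement. Calls in DMSO ran from 8070 to 9355 with a replicate left out, and called differences between treatments from 2128 to 3443. GLI2 stayed called throughout, at -0.35 to -0.53 with a replicate left out. Of 122 named genes that were called, 4 lost the call in at least 1 setting, namely CD44, COL1A1, HHIP and PTCH1, and 0 changed direction. The H3C2 log2 fold change, not called, changed sign in some settings. It was -0.024 with upper-quartile factors, -0.00011 with no filter and -0.012 with limma, and ran from -0.10 to 0.15 with a replicate left out. Windows of 25 genes gave extremes of 0.98 and -1.49, and the 8-letter core ACCACCCA was in the promoters of 1.60% of tested genes. Of 192 list medians under other scalings and without both KO replicate 3 libraries, 40 moved by more than the replicate spread, 24 of them with upper-quartile factors. Levels under 3 counts in a library cannot be read at this depth.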
